A study of Homo sapiens with 6 samples.

Results

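The genes described here are 31 genes of cholesterol synthesis and sterol regulation, chosen by name from the 29889 genes with reads in the deposited table. They comprise 7 genes of the mevalonate and isoprenoid steps, 11 genes of the squalene and sterol steps, 5 genes of sterol sensing, 6 genes of sterol transport, efflux and oxysterol formation, and 2 genes of fatty acid synthesis that are controlled by the same transcription factors. The rule uses gene names and no measured value, although earlier results of these data were known when the genes were named. All 31 had enough reads to be tested.

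The cells were A549, an established human lung adenocarcinoma line, so every library came from 1 cell line. They were transfected by lipofection with the pIRES-hrGFP-1a plasmid carrying CELF6, an RNA-binding protein of the CELF family (CELF6-OE), or with the empty plasmid (Control), and were harvested after 48 h. Each group had 3 biological replicates, and the stranded libraries of polyadenylated RNA held between 33748328 and 37920700 counts on genes. The question was which transcripts of the sterol pathway differed between CELF6-OE and Control.

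The expression of CELF6 (ENSG00000140488, chromosome 15) was checked first. The 3 CELF6-OE libraries held 18646, 20789 and 11571 of its counts, and each Control library held 0. A count of 0 allows up to 3 counts per library, so the transcript was at least 5940-fold more abundant in CELF6-OE. Plasmid transcripts and transcripts of the chromosomal locus cannot be told apart. Of 10 marker genes of A549 and epithelial cells, 9 had an FPKM of at least 1 in all 6 libraries, and the summed FPKM of the 10 was 10600 to 10900 for Control and 8540 to 9880 for CELF6-OE. The part of this difference in the results was not tested. Summed FPKM stayed at or below 5.03 in every library for marker lists of leukocytes, fibroblasts, endothelium, and hepatocytes and adipocytes. Libraries of the same group differed by more than sampling noise (chi-square per degree of freedom 7.16 to 26.6), so none was counted as a repeat of another. The value of 26.6 was that of Control replicates 1 and 3, and the other pairs had 7.16 to 10.9.

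Cells make cholesterol from acetyl-CoA through mevalonate, farnesyl diphosphate, squalene and lanosterol. When sterols in the endoplasmic reticulum are scarce, SCAP carries the precursors of the transcription factors SREBP-1 and SREBP-2 to the Golgi, where proteases release the active factors, whereas the INSIG proteins hold SCAP back when sterols are plentiful. The active factors bind sterol regulatory elements, usually next to sites for NF-Y and Sp1, upstream of the genes of this pathway, and oxysterols inhibit the process through INSIG and activate the LXR receptors that drive sterol efflux.

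A total of 10 genes were lower in CELF6-OE and the start regions of 6 of them are shown, because they carry the 3 largest differences (TM7SF2, STARD4 and CH25H) or encode the SREBP factors and the INSIG protein that holds SCAP back (SREBF1, SREBF2 and INSIG1). Each run is the 150 bases before the RefSeq transcript start in GRCh38.p14, read 5′ to 3′ on the strand of the gene. Capitals mark TCACNCCAC (a sterol regulatory element), CCAAT (the NF-Y motif) and GGGCGG (the Sp1 motif), each searched on both strands.
SREBF1, chr17:17836987-17837136, minus strand: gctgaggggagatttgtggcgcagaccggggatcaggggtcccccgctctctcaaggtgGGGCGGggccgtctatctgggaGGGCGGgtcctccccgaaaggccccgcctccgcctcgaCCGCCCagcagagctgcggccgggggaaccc
SREBF2, chr22:41832955-41833104, plus strand: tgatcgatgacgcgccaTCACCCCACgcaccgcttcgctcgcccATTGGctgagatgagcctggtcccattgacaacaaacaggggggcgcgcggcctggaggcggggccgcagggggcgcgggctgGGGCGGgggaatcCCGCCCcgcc
INSIG1, chr7:155297728-155297877, plus strand: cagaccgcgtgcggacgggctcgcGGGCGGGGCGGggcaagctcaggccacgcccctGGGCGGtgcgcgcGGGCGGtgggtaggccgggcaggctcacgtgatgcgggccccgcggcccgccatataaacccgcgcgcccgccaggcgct
TM7SF2, chr11:65111722-65111871, plus strand: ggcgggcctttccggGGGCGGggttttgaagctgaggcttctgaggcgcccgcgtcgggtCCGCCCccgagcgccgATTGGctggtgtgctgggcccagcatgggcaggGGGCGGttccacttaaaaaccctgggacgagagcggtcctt
STARD4, chr5:111512536-111512685, minus strand: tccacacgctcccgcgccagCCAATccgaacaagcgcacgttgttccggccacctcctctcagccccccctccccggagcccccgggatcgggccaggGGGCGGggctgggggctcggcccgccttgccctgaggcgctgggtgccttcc
CH25H, chr10:89207318-89207467, minus strand: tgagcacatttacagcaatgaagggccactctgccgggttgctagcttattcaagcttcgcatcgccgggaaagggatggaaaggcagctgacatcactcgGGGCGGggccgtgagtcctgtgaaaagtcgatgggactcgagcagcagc
The SREBF2 run alone among them holds the sterol regulatory element letters, as TCACCCCAC. The Sp1 letters occur in all 6 runs, and in INSIG1 a pair of matches overlaps by 1 base. The NF-Y letters occur in TM7SF2 and STARD4 on opposite strands, and in SREBF2. RefSeq and GENCODE v44 place the starts of these 6 genes within 200 bases of each other.

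RefSeq promoters were at hand for 26 of the 31 genes, all but ACAT2, FDFT1, SQLE, ABCG1 and FASN. In the same 150-base window, GGGCGG was found in 23 of 26 (88.5%) against 59.9% of the 10388 promoters of genes tested and 36.7% of 27305 promoters of all genes. CCAAT was found in 15 of 26 (57.7%) against 27% and 24.4%, and TCACNCCAC in 1 of 26 (3.85%) against 0.539% and 0.553%. The core of the interferon response element (GAAA, any 2 bases and GAAA again) was found in 0 of 26 against 1.37% and 1.79%. Among the genes that were lower in CELF6-OE, 10 of 10 held GGGCGG and 4 of 10 held CCAAT, and among the other 16 genes 13 held GGGCGG and 11 held CCAAT. These matches describe letters in a window and were not tested for binding. For 6 of the 26 genes the RefSeq start lies more than 200 bases from the GENCODE start (IDI1 7585, DHCR7 4475, SCAP 1185, NPC2 665, MVK 539 and CYP51A1 326 bases), so their windows may not be the ones in use. Among the other 20 genes, 17 held GGGCGG, 12 held CCAAT and 1 held TCACNCCAC.

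Transcript levels per length spanned from FDPS to ABCG1. FPKM scales fragments by transcript length and library, so it allows genes to be ranked. In Control, FDPS, which encodes farnesyl diphosphate synthase, had the highest mean FPKM of the 31 genes at 67.5 ± 2.74 (SD, n = 3). EBP, a sterol isomerase, followed with 47.4 ± 2.78, and SCD, the stearoyl-CoA desaturase, with 34.7 ± 1.98. PMVK, phosphomevalonate kinase, had 34.2 ± 1.48, which differs from SCD by less than their spread. At the low end STARD4 had an FPKM of 1.92 ± 0.42, CH25H 0.397 ± 0.0586, ABCA1 0.29 ± 0.052 and ABCG1 0.18 ± 0.0265. The LXR-driven efflux pumps ABCA1 and ABCG1 were the least abundant transcripts of the group, and each of the enzymes of the main synthesis route stood above an FPKM of 2 in Control.

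**Figure D1:**
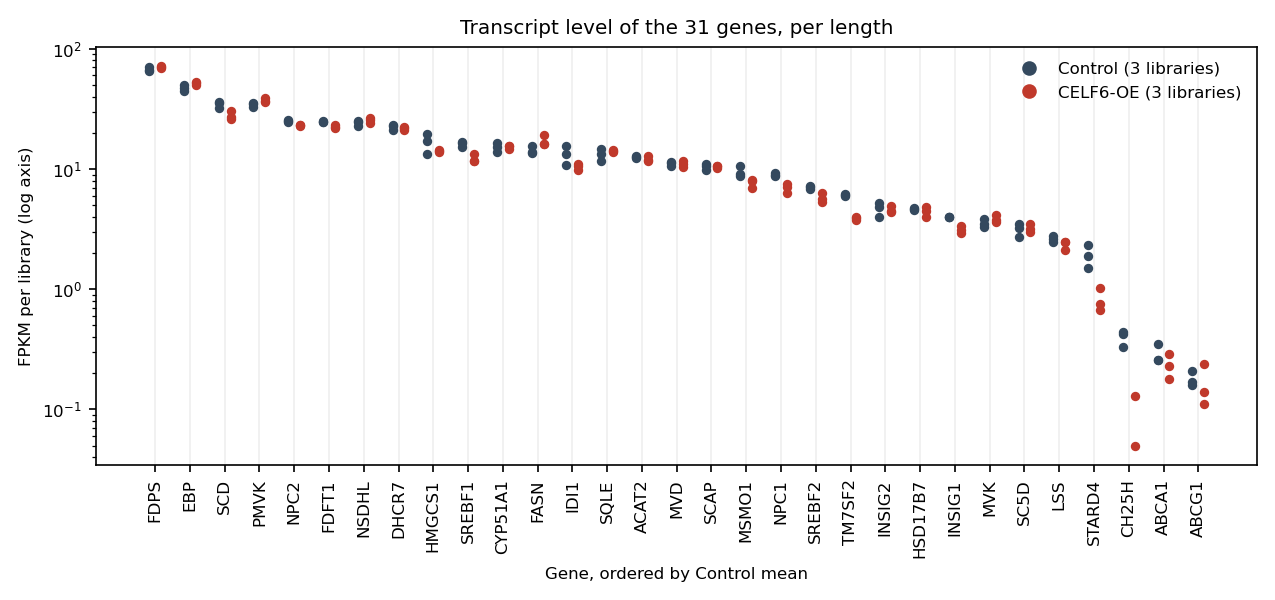
FPKM of the 31 genes in each library on a log axis, ordered by the Control mean, with Control libraries in dark blue and CELF6-OE libraries in red. FDPS is highest at 67.5 and ABCG1 lowest at 0.18, and the CH25H value of CELF6-OE replicate 1, which is 0, cannot be drawn on this axis.

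At an adjusted p under 0.05 (quasi-likelihood test in edgeR, adjusted over 15847 genes by the Benjamini-Hochberg method), 10 of the 31 genes were lower in CELF6-OE (32.3%), against 11.5% of all genes tested. The genes were IDI1, TM7SF2, MSMO1, SREBF1, SREBF2, INSIG1, STARD4, NPC1, CH25H and SCD. None of the 31 was higher, against 6.47% of all genes tested, and 21 did not pass in either direction. The number of lower genes among the 31 was 6 without CELF6-OE replicate 1, where 1127 of all 16205 genes tested were lower. It was 5 without Control replicate 2, where 1032 of all 16088 genes tested were lower. The study states a fold change of 1.5 for a differentially expressed gene, in one place with an unadjusted p under 0.01 and in another with an adjusted p under 0.05. With the unadjusted p, 3 genes were down-regulated (TM7SF2, STARD4 and CH25H), against 5.91% of all genes, and 0 were up-regulated, against 1.36%. With the adjusted p the counts were also 3 and 0, without a share over all genes to set beside them. The normalised counts of the groups did not overlap for 12 genes, all lower in CELF6-OE, which are the 10 above together with FDFT1 and NPC2. The background was 20% of all genes for no overlap with lower values and 17.9% for no overlap with higher values. The median log2 fold change was -0.15 over the 31 genes and 0.01 over all genes tested, and the fitted value was below 0 for 24 of the 31 and for 7665 of the 15847. The p-values set the group difference against the spread between these libraries, which is estimated partly from other genes. In bulk RNA a lower level in every cell cannot be told apart from fewer cells that express a gene.

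**Figure D2:**
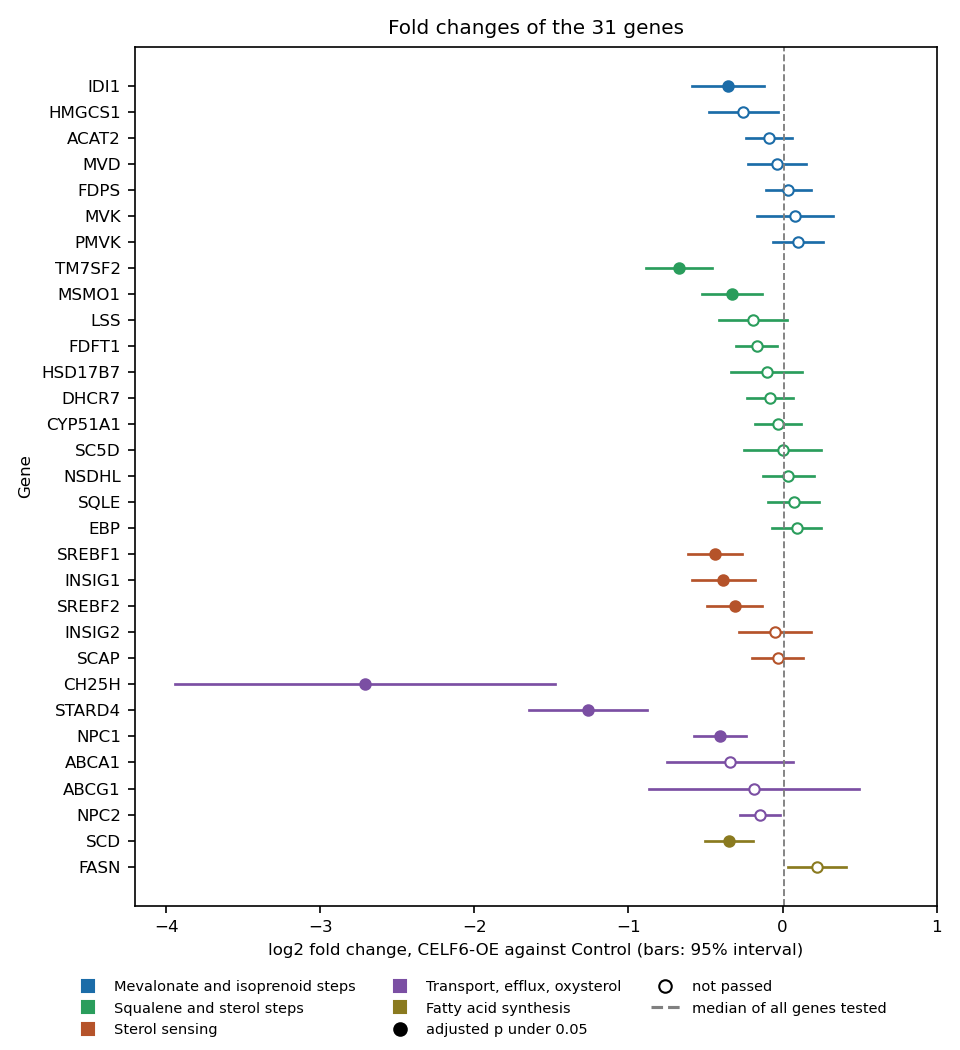
Log2 fold change of CELF6-OE against Control for the 31 genes, grouped by role, with bars for the 95% interval and filled points for an adjusted p under 0.05. The 10 filled points lie to the left of 0, CH25H and STARD4 farthest, and the open points lie between -0.34 and 0.22.

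Of the 5 genes of sterol sensing, SREBF1, SREBF2 and INSIG1 were lower (60%, against 11.5% of all genes tested), and the median log2 fold change was -0.31, against 0.01 over all genes. SREBF1 (ENSG00000072310, chr17:17810399-17837002), which encodes SREBP-1, had counts of 1903, 1924 and 2108 in CELF6-OE, compared with 2597, 2954 and 2937 in Control. In normalised counts (TMM-scaled CPM), the highest CELF6-OE library (replicate 3, 61.7) lay below the lowest Control library (replicate 1, 70.1). After scaling, the mean was 26.4% lower (log2 fold change -0.44, SE 0.08, 95% interval -0.62 to -0.27, adjusted p = 0.00339 in edgeR's quasi-likelihood test).

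SREBF2 (ENSG00000198911, chr22:41833105-41907306) encodes SREBP-2, the main activator of the cholesterol genes. Its counts were 1041, 1119 and 1199 in CELF6-OE and 1378, 1522 and 1489 in Control. The groups did not overlap, and CELF6-OE replicate 3 was the nearest to Control. The fitted difference was 19.4% lower (log2 fold change -0.31, SE 0.08, edgeR adjusted p = 0.0232). INSIG1 (ENSG00000186480, chr7:155297776-155310235), the sterol sensor that is itself a target of the SREBP factors, had counts of 329, 383 and 338 in CELF6-OE and 466, 486 and 489 in Control. All CELF6-OE libraries were below all Control libraries, with a level that was 23.4% lower (log2 fold change -0.38, SE 0.09, edgeR adjusted p = 0.0159). The call was lost without 1 library for SREBF2 (edgeR adjusted p = 0.117 without CELF6-OE replicate 1, 0.103 without CELF6-OE replicate 2 and 0.119 without Control replicate 2). It was lost likewise for INSIG1 (0.0854 without CELF6-OE replicate 1, 0.052 without CELF6-OE replicate 3 and 0.081 without Control replicate 2).

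SCAP, the escort protein, and INSIG2, the second INSIG protein, did not pass. SCAP counts were 1713, 1681 and 1643 in CELF6-OE and 1653, 1840 and 1925 in Control, so that the ranges overlapped. The 95% interval of its log2 fold change was -0.20 to 0.13, and that of INSIG2 was -0.28 to 0.18. Whether SREBF1, SREBF2 and INSIG1 differed from SCAP and INSIG2 in their change was not tested.

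Transport, efflux and oxysterol genes held the largest differences of the 31. STARD4 (ENSG00000164211, chr5:111496033-111512590), a carrier that moves cholesterol between membranes, had counts of 134, 156 and 199 in CELF6-OE and 493, 416 and 331 in Control. Every CELF6-OE library was below every Control library, although the values within each group also varied. The level was 58.4% lower (log2 fold change -1.27, SE 0.17, 95% interval -1.65 to -0.88, edgeR adjusted p = 0.000603), and the log2 fold change stayed between -1.46 and -1.13 when each library was left out.

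CH25H (ENSG00000138135, chr10:89205629-89207317) encodes cholesterol 25-hydroxylase, which makes the oxysterol 25-hydroxycholesterol and is known as an interferon-induced gene. Its counts were 0, 3 and 8 in CELF6-OE and 21, 29 and 28 in Control. The groups did not overlap, but the CELF6-OE values rest on 11 counts in all. The fitted log2 fold change was -2.71 (SE 0.56, 95% interval -3.95 to -1.48, edgeR adjusted p = 0.00683). It moved to -3.96 without CELF6-OE replicate 3 and to -2.14 without CELF6-OE replicate 1, and it remained past the threshold without any 1 library.

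NPC1 (ENSG00000141458, chr18:23506184-23586506) releases cholesterol from late endosomes and lysosomes. Its counts were 1178, 1423 and 1296 in CELF6-OE and 1751, 1791 and 1888 in Control, with no overlap. The level was 24.6% lower (log2 fold change -0.41, SE 0.08, edgeR adjusted p = 0.0044). NPC2, the soluble lysosomal partner of NPC1, had counts of 2136, 2222 and 2086 in CELF6-OE and 2487, 2525 and 2490 in Control. Its groups did not overlap either, but the difference was smaller and did not pass (log2 fold change -0.15, 95% interval -0.27 to -0.02, edgeR adjusted p = 0.107).

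The efflux pumps ABCA1 and ABCG1 did not pass, and their intervals were wide. ABCA1 had counts of 74, 120 and 93 in CELF6-OE and 151, 115 and 116 in Control, and the interval of its log2 fold change was -0.75 to 0.07. ABCG1 counts ranged from 18 to 40 in CELF6-OE, against 29 to 38 for Control, with an interval of -0.87 to 0.50. Both intervals include 0 as well as the fitted value of NPC1.

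**Figure D3:**
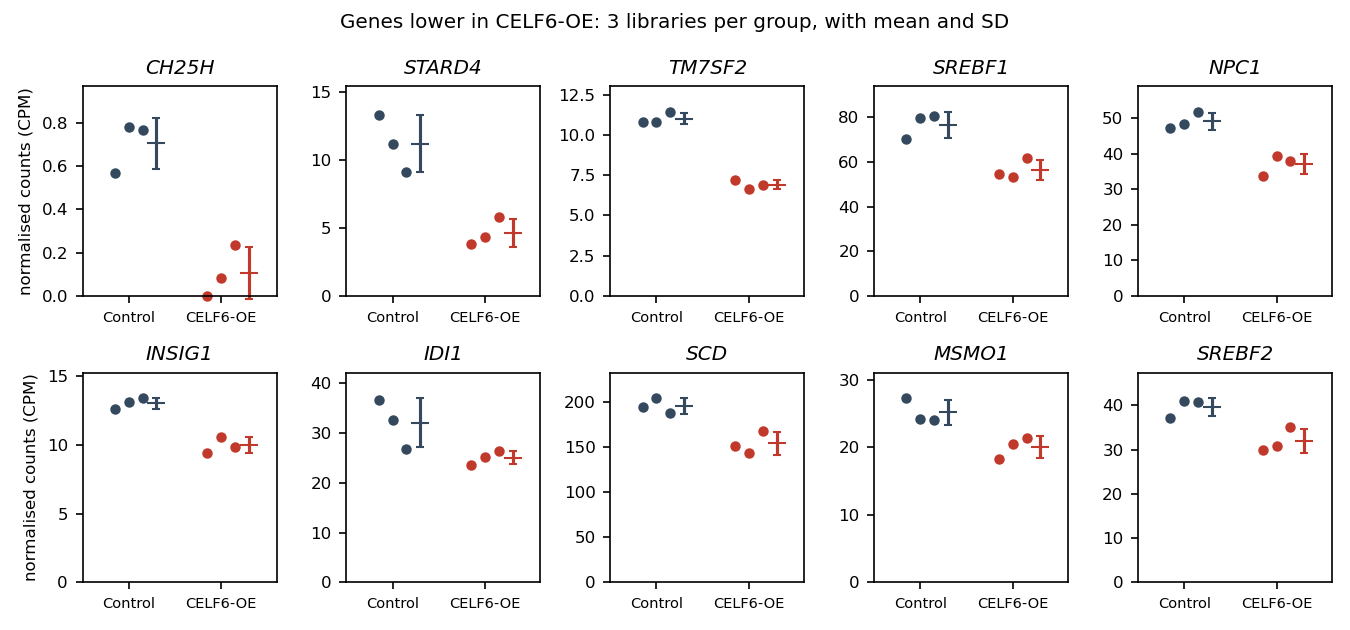
Normalised counts (TMM-scaled CPM) of the 10 genes with lower values in CELF6-OE, each library as a point, beside the mean and SD (n = 3). Each axis starts at 0 and has its own range, and in each panel the 3 red CELF6-OE points lie below the 3 dark blue Control points.

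Of the 11 genes of the squalene and sterol steps, 2 were lower (18.2%, against 11.5% of all genes tested). TM7SF2 (ENSG00000149809, chr11:65111845-65116384), a sterol C14 reductase, had counts of 250, 240 and 236 in CELF6-OE and 401, 403 and 414 in Control. The libraries of each group lay close together, with a wide gap between the groups. The level was 37.3% lower (log2 fold change -0.67, SE 0.10, 95% interval -0.88 to -0.46, edgeR adjusted p = 0.000773).

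MSMO1 (ENSG00000052802, chr4:165327667-165343164), the sterol C4-methyl oxidase, had counts of 636, 743 and 731 in CELF6-OE and 1013, 900 and 876 in Control. There was no overlap, and the level was 20.4% lower (log2 fold change -0.33, SE 0.09, edgeR adjusted p = 0.0277). The call was lost without CELF6-OE replicate 1 (edgeR adjusted p = 0.133), without CELF6-OE replicate 2 (0.078), without Control replicate 2 (0.0812), with library size as the only scaling (0.0701), and with the replicate number as a block (0.0535).

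The other 9 sterol genes did not pass. FDFT1, squalene synthase, came nearest to the threshold, with counts of 3553, 3413 and 3348 in CELF6-OE against 3952, 4139 and 4115 in Control. Its groups did not overlap, and its log2 fold change was -0.17 (95% interval -0.30 to -0.04, edgeR adjusted p = 0.0786). The edgeR adjusted p was 0.0284 without Control replicate 1 and 0.101 to 0.261 with any other library left out. SQLE, which makes the epoxide of squalene and is a rate-controlling enzyme of the pathway, had 1546, 1527 and 1479 counts in CELF6-OE against 1638, 1546 and 1374 in Control. Those ranges overlapped, and the interval of its log2 fold change was -0.09 to 0.24.

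LSS, lanosterol synthase, had an interval of -0.41 to 0.03. CYP51A1, the lanosterol demethylase, had one of -0.18 to 0.12, and 68.2% of its exon bases are shared with a second annotated gene on the same strand, so its reads are uncertain. The same holds for EBP, with 36.4% shared and an interval of -0.07 to 0.25. NSDHL, the partner of MSMO1 in C4 demethylation, had a log2 fold change of 0.04 (interval -0.13 to 0.20). HSD17B7, the ketoreductase of the same complex, had -0.10 (interval -0.34 to 0.13). The study counted reads with a unique position, so reads that fit its near-identical pseudogene equally well may be missing from its counts. SC5D, the sterol C5 desaturase, had the smallest difference of the 31 genes, with an interval of -0.25 to 0.25. DHCR7, which catalyses the last reduction to cholesterol, had an interval of -0.23 to 0.07.

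Among the 7 genes of the mevalonate and isoprenoid steps, IDI1 was lower, a share of 14.3% that is near the 11.5% of all genes tested. IDI1 (ENSG00000067064, chr10:1039152-1049119), isopentenyl diphosphate isomerase, had counts of 821, 909 and 898 in CELF6-OE and 1354, 1208 and 979 in Control. Control replicate 3 lay close to the CELF6-OE libraries and the other Control libraries far above them. The level was 21.8% lower (log2 fold change -0.36, SE 0.11, 95% interval -0.59 to -0.12, edgeR adjusted p = 0.04). The call was the least stable of the 10, as it passed in 11 of 17 alternatives. It was lost without CELF6-OE replicate 1, 2 or 3 (edgeR adjusted p = 0.153, 0.115 and 0.0559), without Control replicate 2 (0.138), with library size only (0.0977) and with the replicate block (0.0526).

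HMGCS1, the HMG-CoA synthase, showed the same arrangement of libraries. Its counts were 1786, 1853 and 1806 in CELF6-OE and 2621, 2357 and 1866 in Control, so Control replicate 3 was at the level of CELF6-OE while the other Control libraries were higher. It did not pass (log2 fold change -0.26, 95% interval -0.48 to -0.03, edgeR adjusted p = 0.106). Leaving out Control replicate 3 gave a log2 fold change of -0.37 (edgeR adjusted p = 0.00163), and leaving out Control replicate 1 gave -0.15 (0.179). Without CELF6-OE replicate 1, 2 or 3 or Control replicate 2, the edgeR adjusted p was 0.242, 0.244, 0.155 and 0.275.

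The remaining 5 mevalonate genes did not pass, which does not show that their levels were equal. ACAT2, which condenses acetyl-CoA, had counts of 1361 to 1437 in CELF6-OE against 1527 to 1595 in Control, and after scaling its groups overlapped (log2 fold change -0.09, interval -0.24 to 0.06). The kinases MVK and PMVK had log2 fold changes of 0.08 (interval -0.16 to 0.33) and 0.10 (interval -0.06 to 0.26). MVD, which forms isopentenyl diphosphate, had -0.04 (interval -0.22 to 0.15). FDPS, the most abundant transcript of the 31, had 4301, 4258 and 4096 counts in CELF6-OE against 4053, 4351 and 4573 in Control, with an interval of -0.11 to 0.18.

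The pair of fatty acid genes lay on either side of 0. SCD (ENSG00000099194, chr10:100347233-100364826), which desaturates stearoyl-CoA, had counts of 5257, 5227 and 5728 in CELF6-OE and 7223, 7633 and 6861 in Control. The groups did not overlap, and the level was 21.3% lower (log2 fold change -0.35, SE 0.07, edgeR adjusted p = 0.00679, and 0.0557 without Control replicate 2). FASN, fatty acid synthase, had 4996, 6038 and 4905 counts in CELF6-OE against 4417, 4687 and 5246 in Control. Its scaled values overlapped, and it did not pass (log2 fold change 0.22, 95% interval 0.04 to 0.41, edgeR adjusted p = 0.0952). Without Control replicate 3 its edgeR adjusted p was 0.0132 with a log2 fold change of 0.30. Without CELF6-OE replicate 2 they were 0.371 and 0.14, and with any other library left out the edgeR adjusted p was 0.12 to 0.275. The 95% intervals of SCD and FASN, -0.50 to -0.19 and 0.04 to 0.41, did not overlap, and the difference between them was not tested.

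Across libraries, the median deviation of the 31 genes from the Control mean was -0.11, -0.14 and -0.15 (log2) for the CELF6-OE replicates, against -0.05, 0.02 and 0.04 for the Control replicates, with a pooled SD within groups of 0.04. Their summed counts took 0.134% to 0.138% of each CELF6-OE library and 0.142% to 0.145% of each Control library. CELF6-OE replicate 3, whose CELF6 level was 61% of the mean of the other replicates, was the library nearest to Control for 7 of the 10 lower genes. It was also the nearest for 65.9% of the 1820 genes that were lower among all genes, and the part of the CELF6 level in this was not tested.

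**Figure D4:**
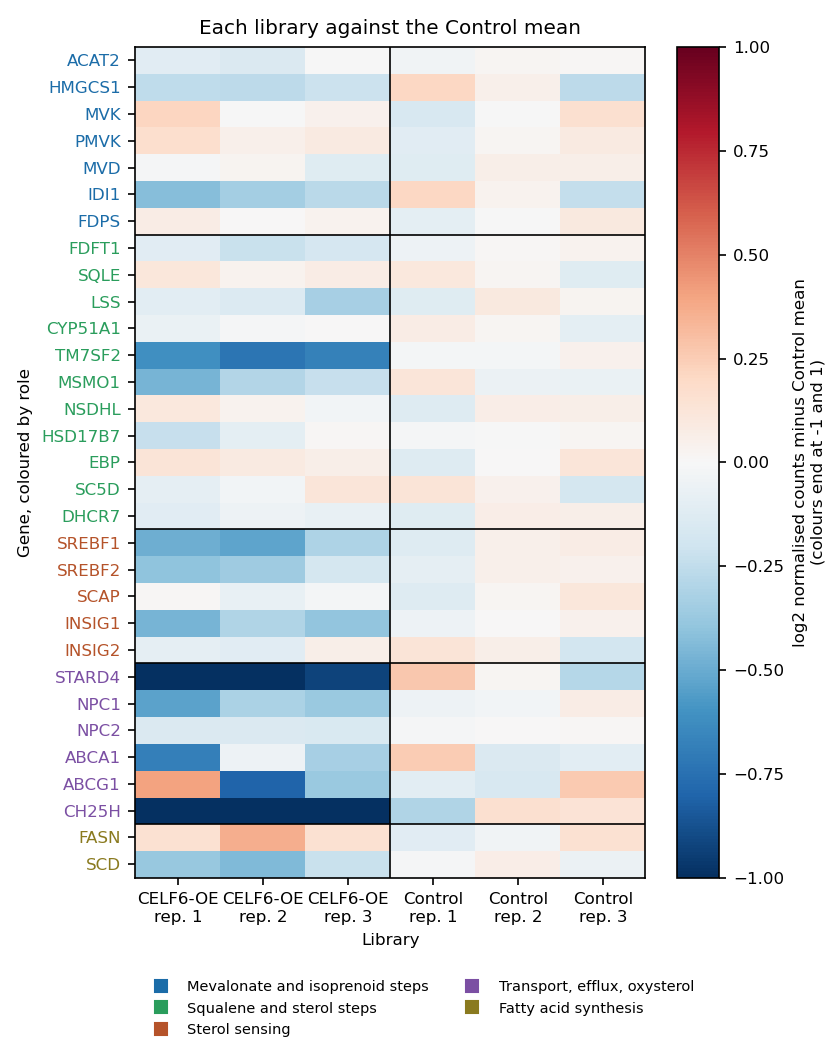
Log2 normalised counts of each gene in each library minus the Control mean, with genes in rows coloured by role and colours ending at -1 and 1. STARD4, CH25H and TM7SF2 are dark blue across all 3 CELF6-OE libraries. STARD4, HMGCS1 and IDI1 are also blue in Control replicate 3 (-0.285, -0.259 and -0.24).

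A wider list of sterol and fatty acid genes was read in the same test. Of 39 genes of that list in the table, 36 had enough reads, and 8 were lower (22.2%, against 11.5% of all genes tested), 1 was higher (2.78%, against 6.47%) and 27 did not pass. The median log2 fold change was -0.08, against 0.01 over all genes. Without CELF6-OE replicate 1, CELF6-OE replicate 2 or Control replicate 2, 4 were lower. Over all genes tested, 1127 of 16205, 1066 of 16191 and 1032 of 16088 were lower in these 3 fits. The lower genes included uptake and storage genes. SCARB1, the receptor for high-density lipoprotein, had a log2 fold change of -0.54 (SE 0.07, edgeR adjusted p = 0.000345), and VLDLR, a lipoprotein receptor, had -0.41 (SE 0.09, edgeR adjusted p = 0.0138). LIPA, the lysosomal lipase that frees cholesterol from its esters, had -0.53 (SE 0.08, edgeR adjusted p = 0.000749). SOAT1, which esterifies cholesterol for storage, had -0.34 (SE 0.10, edgeR adjusted p = 0.0324).

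NR1H3, which encodes the LXR-alpha receptor, had a log2 fold change of -0.42 (SE 0.12, edgeR adjusted p = 0.0305). Its target genes LPCAT3, an enzyme that remodels phospholipids, and PLTP, a phospholipid transfer protein, had -0.45 and -0.57 (edgeR adjusted p = 0.000985 and 0.0342). FADS2, a fatty acid desaturase, had -0.48 (SE 0.06, edgeR adjusted p = 0.000367). GPAM, which begins glycerolipid synthesis, was the gene that rose, with a log2 fold change of 0.53 (SE 0.12, edgeR adjusted p = 0.00943). SCARB1, FADS2, LIPA and LPCAT3 passed in all 17 alternatives. VLDLR, NR1H3, SOAT1 and PLTP were the 4 that did not pass when CELF6-OE replicate 1, CELF6-OE replicate 2 or Control replicate 2 was left out, with an edgeR adjusted p of up to 0.0832, 0.112, 0.132 and 0.13, and GPAM did not pass without CELF6-OE replicate 2 (0.0512).

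**Figure D5:**
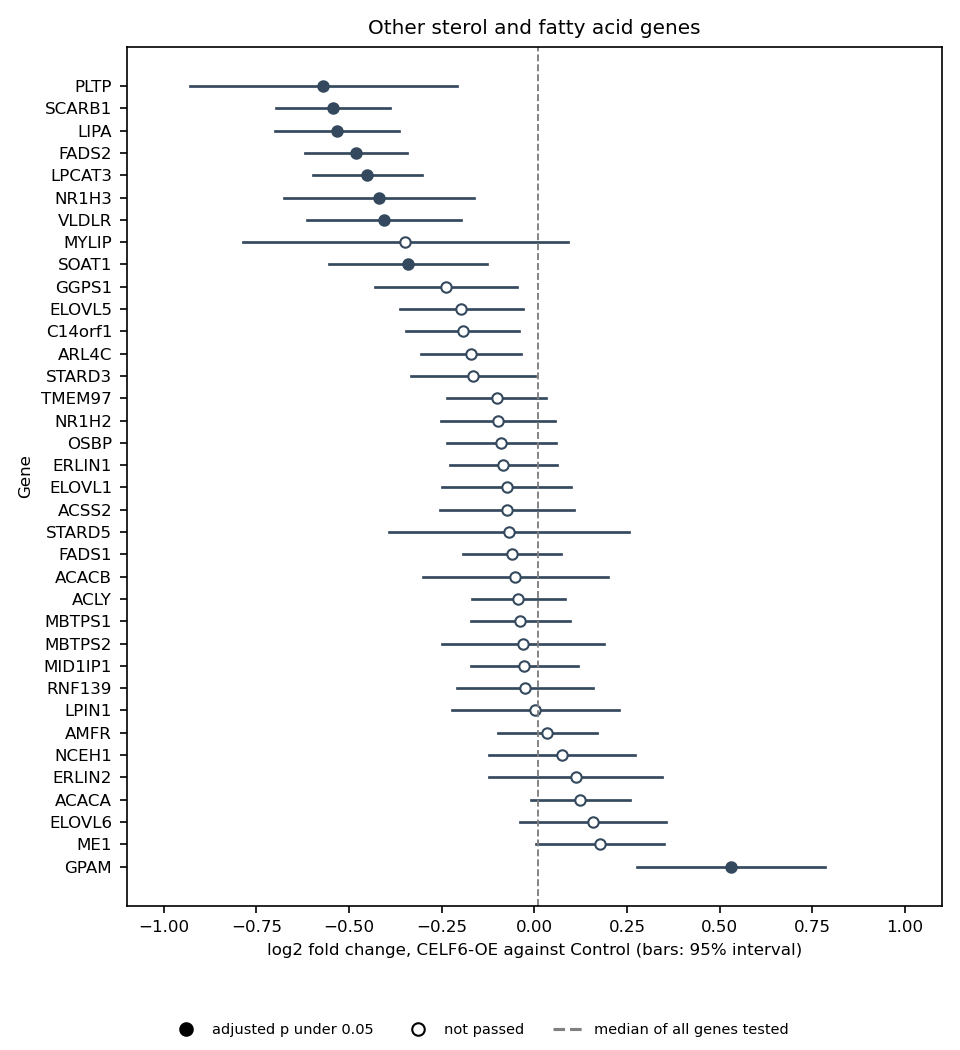
Log2 fold change of CELF6-OE against Control for the 36 tested genes of the wider list, with bars for the 95% interval and filled points for an adjusted p under 0.05. GPAM at 0.53 is the filled point to the right of 0, and 8 filled points lie between -0.57 and -0.34.

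Annotated neighbours share exon sequence with several of the 31 genes on the opposite strand, and the strand setting of the counting is not given in the sources used here. The share of exon bases was 37.7% for HMGCS1, 18.6% for FDPS, 17.2% for ACAT2, 15% for IDI1, 9.08% for SREBF2, 6.75% for SREBF1, 6.38% for NPC1 and 2.18% for STARD4. TM7SF2 shares 0.528% of its exon bases with a neighbour on its own strand, and SCD, INSIG1, MSMO1 and CH25H share none in GENCODE v44.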

How the data were processed

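Polyadenylated RNA of A549 cells that received a CELF6 or an empty plasmid was sequenced in 3 libraries per group. The authors aligned trimmed reads to GRCh38 with TopHat2 and deposited read counts per gene, without normalization, and FPKM values, which the authors scaled by transcript length and library size. How reads were counted (tool, strand, annotation) is not given in the sources used here. Groups came from the sample labels, and all 6 columns of each of the 2 deposited tables were used.

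Genes were matched by symbol. Counts were scaled with TMM and tested with edgeR 4.0.16 (R 4.3.3), using glmQLFit and glmQLFTest, on the 15847 genes kept by filterByExpr (minimum count 10), with Benjamini-Hochberg adjustment over all of them. The prior degrees of freedom were 7.15, whereas all 29889 genes without a filter gave infinite ones. A prior count of 0.125 entered the log2 fold changes, and 95% intervals used a t quantile of 2.2. Normalised counts are TMM-scaled CPM. FPKM served for levels between genes. Total counts per library were 33748328 to 37920700. The procedure was tested on simulated data. All 31 genes were named, and genes of the wider list where they passed the adjusted p. The genes and lists were chosen with earlier results of these data known, so the counts over them are descriptions and no set test was made. Alternatives were other scalings, filters, tests (DESeq2 1.42.0, limma-voom in limma 3.58.1, edgeR's exact test), a prior count of 2, removal of the CELF6 counts, a replicate block, and each library left out in turn. Positions are from GENCODE v44 and start regions from RefSeq (GRCh38.p14).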

Additional observations from a re-analysis of the deposited data

How the results depend on the processing

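Of the 10 lower genes, TM7SF2, SREBF1, STARD4 and NPC1 passed in all 17 alternatives and CH25H in all 16 in which it was tested. SCD passed in 16, SREBF2 and INSIG1 in 14, MSMO1 in 12 and IDI1 in 11, and no fitted change that passed reversed. The number of lower genes among the 31 was 5 to 11 when 1 library was left out (6 without CELF6-OE replicate 1, 5 without Control replicate 2), and the number of higher genes was 0 to 1. FASN was that 1 gene, without Control replicate 3, with library size only (1) and with no filter (1). Their median log2 fold change was -0.11 with library size only. In the wider list, 5 genes were lower with library size only, and 4 to 11 were lower and 0 to 2 higher with 1 library left out. Over all genes, leaving out 1 library gave 281 to 1906 higher genes (1906 without Control replicate 1) and 1032 to 2370 lower genes (1032 without Control replicate 2). With library size only, 1516 genes were lower and 1288 higher, against 1820 and 1025 with TMM. The cause was not tested.

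Same-numbered libraries showed no shared deviation from their group means, with correlations of -0.056, -0.046 and -0.099. The largest correlations with a Control library of another number were 0.055, 0.044 and 0.069. With 3 libraries per group these values cannot decide whether the samples were handled in pairs, and the labels do not state it. With the replicate block, 8 of the 31 genes were lower, and 1570 genes were lower and 720 higher over all genes. With a pseudocount of 1, the log2 FPKM difference was -0.40 for CH25H and -0.68 for STARD4, and with 0.1 it was -1.71 and -1.14. Counts under 50 in CH25H and ABCG1 limit their precision.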
